A study of Mus musculus with 8 samples.

Results

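The 10 claudin genes Cldn1, Cldn2, Cldn3, Cldn4, Cldn6, Cldn7, Cldn8, Cldn10, Cldn12 and Cldn18 were followed in pancreatic epithelium of mouse embryos at e15.5, counted in days after conception. They were taken by name, as every non-control probe of the array annotated to one of these genes, which gave 11 probes, 2 of them for Cldn1. All 10 genes passed the detection filter and were among 19391 genes and unnamed transcripts tested. The mutant group held 4 pools from Sox9fl/fl; Rosa26-CreER embryos, and the wild-type group 4 pools from littermates that carried Rosa26-CreER alone. Tamoxifen, 6 mg per 40 g, was given to all dams at e12.5, so both genotypes carried the recombinase and were exposed to the drug. Rosa26 is active in nearly all tissues, so the recombinase was not limited to one pancreatic cell type. The Sox9-flox allele came from a background that mixed FVB/N, C57Bl/6J and CD1, and Rosa26-CreER from C57Bl/6J. Each pool joined the dorsal and ventral epithelium of 4 embryos, so the errors below are spreads between pools.

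Claudins are the membrane proteins that form the strands of tight junctions, the seal between neighbouring epithelial cells. Some of them tighten the seal, others form pores that let ions or water pass between cells, and an epithelium's mix of claudins sets how leaky it is and to what. In the pancreas the ducts that carry bicarbonate-rich fluid and the acini that secrete enzymes are both closed by such junctions. The transcription factor SOX9 marks the progenitors and later the ducts of the pancreas, and the study asked which genes depend on it while endocrine, acinar and duct cells form.

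In the mutant pools 3 claudin genes were higher, Cldn18, Cldn8 and Cldn6, and 1 was lower, Cldn10. Cldn18 rose 3.1-fold, Cldn8 2.40-fold and Cldn6 1.38-fold, while Cldn10 fell 1.66-fold. The other 6 did not pass an adjusted p of 0.05 (limma with Benjamini-Hochberg adjustment over all 19391 features). The 4 called members are 40% of the 10, where 5.58% of all features were called, 2.13% as higher and 3.45% as lower in mutants. The median absolute log2 fold change was 0.32 for the 10 genes and 0.21 for all features. Their signed median was 0.03, since the members moved in both directions. In 6 members, or 3 above and 3 below, the mutant and wild-type pools did not overlap, which was so for 25.8% of all features. All values are log2 levels for which the 75th percentile of an array is 0. A level can be compared between pools for 1 probe, but not between genes as an amount of RNA. Sums over a list add probe signals, so they follow the probes of highest level. Pools were measured in bulk, and fewer cells of a type cannot be told apart from less RNA per cell.

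The array of mutant replicate 2 stood apart from the other 7, with a median signal of 756 scanner units against 219 to 272 and 85.9% of probes well above background against 69.0% to 73.4%. Its median correlation across genes with the arrays of its own genotype was 0.85 against 0.99 for each of the others. Results are therefore given with and without it. Without it, 3364 features passed, or 17.3%, and 5 of the 10 claudin genes. Centring arrays on their median, which shifted the median of all features to -0.40, ended all 4 calls with 8 arrays, and without mutant replicate 2 called 5 members. Normexp background correction called Cldn8 alone, with or without that array. All wild-type pools lay on slide 1, scan 1, and all mutant pools on slide 2, scan 2, so genotype cannot be told apart from slide and scan in any result here.

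Sox9 itself was lower in every mutant pool on 2 of its 3 probes. The probe used for the gene read 1.77, 1.90, 1.87 and 1.77 in wild-type pools 1 to 4 and 0.59, 0.40, 0.52 and 0.47 in mutant pools 1 to 4. The log2 fold change of -1.33 (adjusted p 0.0008, limma) was -1.30 without mutant replicate 2. A second probe had a log2 fold change of -2.51, and of -2.59 without mutant replicate 2. The third probe had one of 0.63, which did not pass (probe fit, adjusted p 0.34, limma). Without mutant replicate 2 the third probe was at 0.23 (adjusted p 0.24). The labels do not state which part of the gene is removed, and the probe positions were not set against it.

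**Figure D1:**
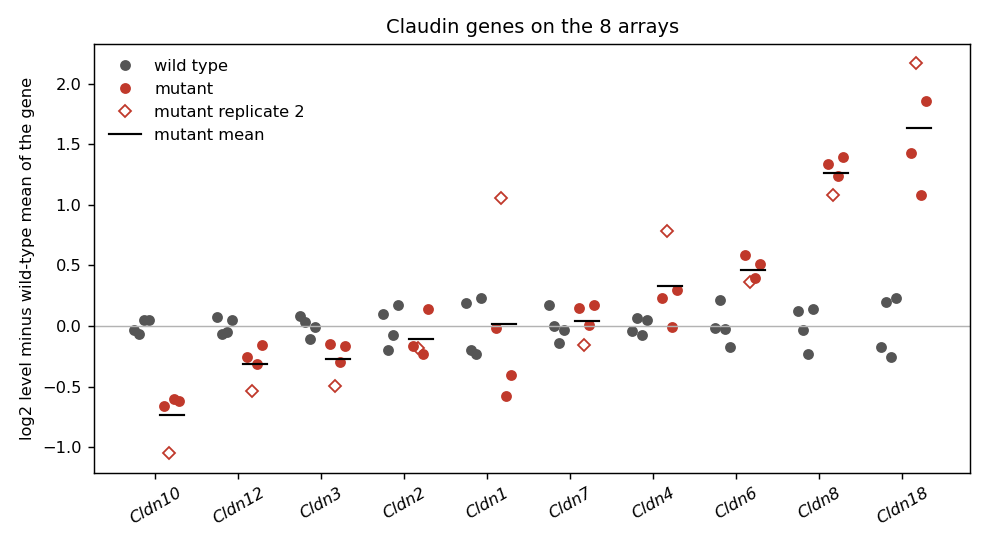
Each point is one pool's log2 level minus the wild-type mean of that gene, for the 10 claudin genes (x axis); grey points are wild type, red points mutant, open diamonds mutant replicate 2, and black lines the mutant mean. Cldn8, Cldn18 and Cldn6 lie above and Cldn10, Cldn12 and Cldn3 below the wild-type points in all 4 mutant pools.

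Among the claudins that tighten the junction, Cldn8 gave the steadiest difference. Cldn8 is best known from the distal nephron, where it acts with Cldn4. Its probe (A_52_P549190, chromosome 16, 88449749 to 88449808 on mm8, minus strand) read -0.997, -1.16, -1.35 and -0.98 in wild-type pools 1 to 4 and 0.22, -0.04, 0.12 and 0.27 in mutant pools 1 to 4. The lowest mutant pool thus lay well above the highest wild-type pool. The means were -1.12 ± 0.17 and 0.14 ± 0.14 (SD, n = 4 pools each), which differ by 1.26 (SE 0.11, adjusted p 0.0028, limma). Without mutant replicate 2 it was 1.32 (adjusted p 0.0010, limma). Cldn8 passed in each of the 8 fits that left out 1 array, where the adjusted p was at most 0.0165.

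Cldn18 had the widest change of the 10, with more spread between pools. The gene is known from lung and stomach, each of which uses a start of its own, and in the stomach its protein takes part in the barrier against acid. Its probe (A_51_P437707, chromosome 9, 99500151 to 99500190 on mm8, minus strand) read -2.24, -1.87, -2.33 and -1.83 in wild-type pools 1 to 4 and -0.64, 0.10, -0.99 and -0.21 in mutant pools 1 to 4. Mutant replicate 2 was the highest pool, and the groups did not overlap with or without it. The log2 fold change was 1.63 (SE 0.25, adjusted p 0.0148, limma), and 1.45 (adjusted p 0.0064) without mutant replicate 2. The call was lost without wild-type replicate 1 (adjusted p 0.0560) and without wild-type replicate 3 (0.0551).

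Markers of stomach and intestine were set beside Cldn18, since the gene belongs to the gastric epithelium. Of 16 listed, 12 were tested and 1 passed, Atp4a, a subunit gene of the gastric proton pump, with a log2 fold change of 0.93 (adjusted p 0.0143, limma) and 0.79 without mutant replicate 2. The other 11 did not pass and had both signs. Of the gastric genes Atp4b, the pump's other subunit, had 0.35 with all arrays and -0.40 without mutant replicate 2, Muc5ac 0.82 and -0.0014, Muc6 0.32 and -0.20, Tff1 0.20 and -0.66, Tff2 0.34 and 0.37, and Gkn3 -0.51 and -0.54. Of the intestinal genes Muc2 had 1.02 and 0.30, Vil1 -0.35 and -0.22, Lgals4 -0.77 and -1.06, Fabp2 -1.08 and -1.69, and Cdx2 -1.51 and -2.91. Lgals4, Fabp2 and Cdx2 were uneven among the wild-type pools. In wild-type pools 1 to 4 Lgals4 read 0.85, -2.48, -3.11 and -0.31, and Fabp2 -1.59, -4.60, -5.15 and -2.15. Cdx2 read -1.99, -6.36, -6.12 and -2.95 there. Wild-type pools 1 and 4 thus raised the wild-type means of these genes. The median of the 12 went from 0.26 with all arrays to -0.31 without mutant replicate 2. Gkn1, Gkn2, Pgc and Cdx1 did not pass the detection filter. The summed level of the 12, in multiples of the array's 75th percentile, was 3.53 to 6.30 in wild-type pools and 3.39 to 4.73 in mutant pools, or 3.39 to 3.98 without mutant replicate 2. Vil1, whose probe had the highest level of the 12 (means 1.37 in wild type and 1.02 in mutants), weighed most in this sum. In the mesenchyme list Nkx3-2 (0.57, adjusted p 0.0138) and Barx1 (0.27, adjusted p 0.0381), which encode factors of the mesenchyme, rose. The remaining 12 of the 14 did not pass with all arrays. Without mutant replicate 2 Nkx3-2 and Barx1 still rose, and Lum of the same list fell (-0.36, adjusted p 0.0373, limma). With all arrays 8.33% of the stomach and intestine list and 14.3% of the mesenchyme list were called, against 5.58% of all features. The part of these markers in the Cldn18 result was not tested.

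The deposited annotation has 1 Cldn18 probe, while RefSeq lists 2 starts for the gene, so the stretch before each start is shown, and which of them fed the probe was not measured. Both are the 250 bases before the start, 5′ to 3′ on the gene's strand, from RefSeq on GRCm38.p6, at chr9:99717268-99717517 and chr9:99710064-99710313, minus strand. The letter strings ACAAT and ACAAAG, to which SOX proteins commonly bind, were searched on both strands and would be in capitals, and neither stretch holds one.
Cldn18, upstream start: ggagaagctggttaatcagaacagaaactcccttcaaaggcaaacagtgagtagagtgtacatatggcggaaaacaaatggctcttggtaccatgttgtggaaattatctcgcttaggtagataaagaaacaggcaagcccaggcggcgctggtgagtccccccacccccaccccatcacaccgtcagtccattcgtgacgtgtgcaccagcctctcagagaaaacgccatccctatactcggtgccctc
Cldn18, downstream start: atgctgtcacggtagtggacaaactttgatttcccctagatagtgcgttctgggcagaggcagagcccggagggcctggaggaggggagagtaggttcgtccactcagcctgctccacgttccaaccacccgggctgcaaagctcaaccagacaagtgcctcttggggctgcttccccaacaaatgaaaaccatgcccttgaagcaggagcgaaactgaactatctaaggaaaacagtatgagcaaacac
Their GC content was 52.0% and 54.0%, near the median of 52.4% over 32851 promoters.

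The other claudins of the tightening kind did not pass. Cldn4, which lies next to Cldn3 on chromosome 5 with 41.8 kb between their probes on mm8, read -0.22, -0.11, -0.25 and -0.12 in wild-type pools 1 to 4. In mutant pools 1 to 4 it read 0.06, 0.61, -0.18 and 0.12, so that mutant replicate 2 was highest and mutant replicate 3 lay within the wild-type range. The log2 fold change was 0.33 (SE 0.16, adjusted p 0.24, limma) and 0.18 (adjusted p 0.19) without mutant replicate 2. Cldn3, a widespread epithelial claudin, read 3.58, 3.53, 3.39 and 3.49 in wild-type pools 1 to 4 and 3.34, 3.00, 3.20 and 3.33 in mutant pools 1 to 4. All 4 mutant pools lay below the wild-type pools, by a narrow margin, and the log2 fold change of -0.28 (SE 0.09) had an adjusted p of 0.13 with all arrays and of 0.0829, at -0.20, without mutant replicate 2 (limma). The neighbouring genes Cldn3 and Cldn4 had fold changes of opposite sign, and neither passed, and with median centring Cldn4 was at -0.070.

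Cldn7, whose protein binds the adhesion molecule EPCAM, read 3.98 to 4.30 in wild-type pools and 3.97 to 4.30 in mutant pools, a log2 fold change of 0.04 (SE 0.10, adjusted p 0.80, limma). Cldn1, the claudin of the skin barrier, was dim, at 55.9 to 105 scanner units of processed signal, apart from 206 in mutant replicate 2. Its log2 fold change was 0.01 (SE 0.35, adjusted p 0.98) with all arrays and -0.33 (adjusted p 0.22) without mutant replicate 2, so that this array set the sign (limma). The second Cldn1 probe, 1.58 kb away on chromosome 16, had 0.36 (adjusted p 0.65 in the fit over probes) and -0.19 without mutant replicate 2. For Cldn1 neither a rise nor a fall was detectable.

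Of the claudins linked to pores, Cldn10 was lower in all mutant pools. Its products form anion or cation pores, depending on the first exon, and the gene is expressed in pancreatic ducts. The probe (A_51_P456465, chromosome 14, 118009418 to 118009477 on mm8, plus strand) read 3.04, 3.00, 3.12 and 3.12 in wild-type pools 1 to 4 and 2.41, 2.02, 2.46 and 2.45 in mutant pools 1 to 4. Wild-type pools differed by little, and mutant replicate 2 was the lowest pool. The means were 3.07 ± 0.06 and 2.34 ± 0.21 (SD, n = 4 pools each), and the log2 fold change -0.73 (SE 0.11, adjusted p 0.0143, limma). Without mutant replicate 2 the mutant mean was 2.44 ± 0.03 (n = 3) and the log2 fold change -0.63 (adjusted p 0.0012). The call was lost without wild-type replicate 1 (adjusted p 0.0504) and without wild-type replicate 3 (0.0556).

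Cell type markers were set beside Cldn10. Over all features 5.58% were called with all arrays and 17.3% without mutant replicate 2. In the duct list, which holds Sox9, 2 of 14 genes fell, Sox9 and Spp1 (log2 fold change -1.14, adjusted p 0.0035), and 1 rose, Onecut1 (0.94, adjusted p 0.0187, limma). Without mutant replicate 2, 3 fell and 3 rose, among them Car2 (-0.99, adjusted p 0.0055) as lower and Cftr (1.46, adjusted p 0.0027) as higher. The list median was 0.02 with all arrays and 0.04 without mutant replicate 2. The summed level was 92.8 to 104 in wild-type pools and 55.8 to 70.2 in mutant pools, a gap that Spp1 made up, since the other 13 genes summed to 36.3 to 37.9 and 32.5 to 39.6. In the endocrine list 8 of 14 fell and 0 rose, and without mutant replicate 2, 12 fell and 0 rose. Its summed level was 218 to 282 in wild-type pools, 74.8 in mutant replicate 2 and 165 to 199 in the other mutant pools. Among 13 acinar genes 0 passed and 2 had an unadjusted p under 0.05 by limma, where 25.5% of all features had one. Their summed levels overlapped, at 789 to 980 and 574 to 969, with the lowest in mutant replicate 2 and 726 to 969 in the other mutant pools. Of 12 neuron and Schwann cell genes 4 fell, and of 9 liver genes 0 passed by limma and 1 had an unadjusted p under 0.05. The liver list was uneven between pools. Its summed level was 8.08 to 22.2 in wild-type pools, 44.1 in mutant replicate 2 and 14.2 to 15.9 in the other mutant pools. The part of these marker lists in the Cldn10 result was not tested.

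RefSeq lists 2 starts for Cldn10 as well, which differ in base composition and are printed for that contrast. They are the 250 bases before each start on GRCm38.p6, at chr14:118787621-118787870 and chr14:118854700-118854949, plus strand, with any ACAAT or ACAAAG in capitals on either strand.
Cldn10, upstream start: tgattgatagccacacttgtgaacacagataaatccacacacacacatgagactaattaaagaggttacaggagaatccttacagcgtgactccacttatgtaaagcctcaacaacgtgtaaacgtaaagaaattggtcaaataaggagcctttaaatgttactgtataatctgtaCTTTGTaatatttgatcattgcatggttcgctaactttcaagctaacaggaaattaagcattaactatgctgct
Cldn10, downstream start: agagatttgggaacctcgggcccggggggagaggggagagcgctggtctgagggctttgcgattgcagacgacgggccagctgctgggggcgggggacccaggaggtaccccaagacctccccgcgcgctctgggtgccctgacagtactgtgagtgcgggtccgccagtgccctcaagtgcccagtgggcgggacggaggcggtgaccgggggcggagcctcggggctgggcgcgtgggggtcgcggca
The upstream stretch is AT-rich, with 36% GC and 4 CpG, and the downstream one has 72.4% GC and 22 CpG, against a median of 52.4% and 6 over all promoters. The upstream stretch holds 1 ACAAAG, on the minus strand, which begins 74 bases before the start as read on the plus strand, and the downstream one holds none. Of the 14 RefSeq starts listed for 9 of the 10 genes, 3 held ACAAAG (Cldn1, Cldn4 and Cldn10) and 0 held ACAAT. Over all 32851 promoters the shares were 16.5% and 27.7%, and 38.8% held at least 1 of the pair. These letters are a description of the windows and say nothing of binding.

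Cldn12 and Cldn2, both linked to calcium passage between cells and Cldn2 to sodium and water, did not pass with all arrays. Cldn12 read -0.30, -0.44, -0.42 and -0.32 in wild-type pools 1 to 4 and -0.62, -0.90, -0.68 and -0.52 in mutant pools 1 to 4. The groups did not overlap, and mutant replicate 2 was again the lowest. The log2 fold change was -0.32 (SE 0.09, adjusted p 0.0953) with all arrays and -0.24 (adjusted p 0.0451) without mutant replicate 2, where Cldn12 passed as the second lower member (limma). Cldn2 read -2.26 to -1.89 in wild-type and -2.29 to -1.92 in mutant pools, with a log2 fold change of -0.11 (SE 0.12, adjusted p 0.56, limma).

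Cldn6 is a claudin of embryonic epithelium that is low in most adult tissues. Its probe (A_51_P423743, chromosome 17, 23409682 to 23409741 on mm8, plus strand) read 2.65, 2.87, 2.63 and 2.49 in wild-type pools 1 to 4 and 3.25, 3.02, 3.06 and 3.17 in mutant pools 1 to 4. All mutant pools lay above all wild-type pools. The log2 fold change was 0.46 (SE 0.10, adjusted p 0.0400, limma), and 0.50 (adjusted p 0.0180) without mutant replicate 2. This call was the least firm of the 4. Among the fits with 1 array left out it passed without mutant replicate 2 and without wild-type replicate 2 (0.0437), and in the other 6 the adjusted p was 0.0846 to 0.121. In the fit over all 29462 probes, of which 3.84% were called, its adjusted p was 0.0511, and 3 of the 11 claudin probes passed there, those of Cldn8, Cldn10 and Cldn18.

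Cldn9, the gene next to Cldn6 with 1.08 kb between their probes, stood 0.23 higher on the log2 scale (adjusted p 0.17, limma) and 0.28 (adjusted p 0.0557) without mutant replicate 2. For Cldn6 RefSeq lists 1 start, at chr17:23679115-23679364 on GRCm38.p6, plus strand, whose 250 bases hold neither ACAAT nor ACAAAG and are shown as the stretch nearest the pair.
Cldn6: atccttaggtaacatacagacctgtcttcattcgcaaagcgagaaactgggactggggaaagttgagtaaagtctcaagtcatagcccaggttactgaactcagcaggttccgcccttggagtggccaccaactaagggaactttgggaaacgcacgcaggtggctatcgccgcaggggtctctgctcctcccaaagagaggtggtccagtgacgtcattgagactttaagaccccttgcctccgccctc

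**Figure D2:**
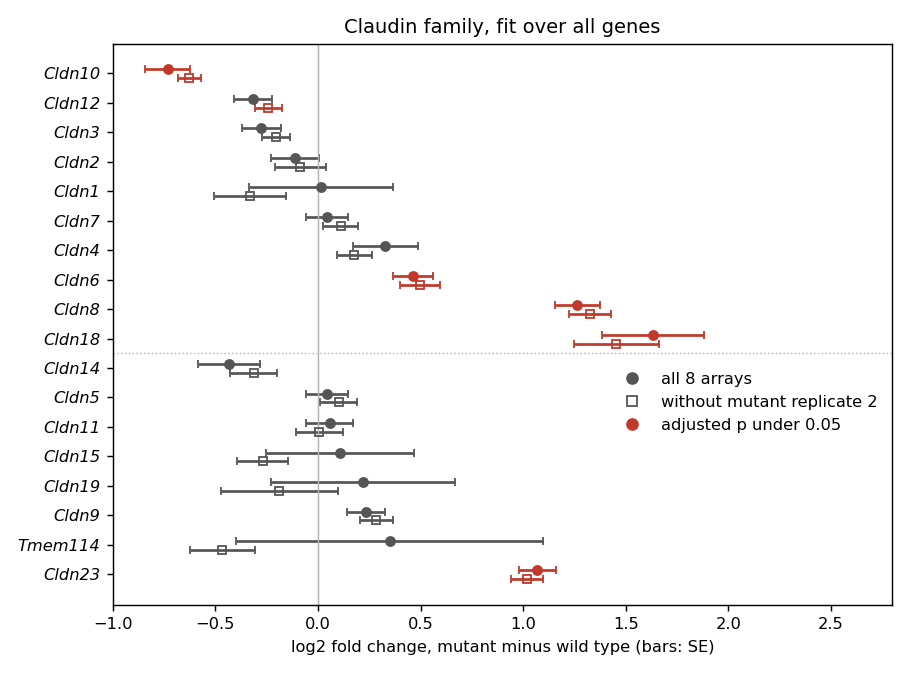
Log2 fold change of mutant minus wild type (x axis) for the 10 claudin genes, above the dotted line, and the 8 tested genes of the other claudin list, below it; filled circles use all 8 arrays, open squares leave out mutant replicate 2, bars are the SE, and red marks an adjusted p under 0.05. Cldn8, Cldn18, Cldn6 and Cldn23 lie to the right and Cldn10 to the left in both fits.

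Elsewhere in the family 1 of 8 tested genes passed. Cldn23 read -2.61, -2.69, -2.84 and -2.86 in wild-type pools 1 to 4 and -1.68, -1.53, -1.82 and -1.69 in mutant pools 1 to 4. The groups were far apart, and the log2 fold change of 1.07 (SE 0.09, adjusted p 0.0026, limma) was 1.02 without mutant replicate 2 and passed in all 8 fits that left out 1 array. It did not pass with quantile normalization (0.69, adjusted p 0.13), median centring (0.67, 0.52) or normexp, where the fold change was smallest (0.40, adjusted p 0.99 with all arrays, and 0.30, 0.79 without mutant replicate 2). Cldn5, the claudin of blood vessels, had 0.04 (adjusted p 0.80). Of 12 endothelial genes 0 passed by limma, where 5.58% of all features did. Among them 0 had an unadjusted p under 0.05, where 25.5% of all features had one. Cldn11, of myelin and testis, had 0.06, Cldn15, a pore of the gut, 0.11, Cldn14 -0.43, Cldn19 0.22 and Tmem114, once named Cldn26, 0.35, and none of these passed. Cldn13, Cldn16, Cldn17 and Cldn22 did not pass the detection filter, and the last 3 were well above background on the array of mutant replicate 2 alone.

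The partners of claudins in the junction were mixed. Of 12 membrane proteins 3 passed, or 25.0%, and of 27 cytoplasmic plaque proteins 2, or 7.41%, where 5.58% of all features passed, with list medians of -0.04 and -0.03. Ildr1, a protein of the corners where 3 cells meet, read -1.52, -1.38, -1.41 and -1.18 in wild-type pools 1 to 4 and -2.39, -2.24, -2.32 and -2.45 in mutant pools 1 to 4. It fell 1.97-fold (log2 fold change -0.98, SE 0.09, adjusted p 0.0032, limma), and passed in all 8 fits that left out 1 array. It did not pass with quantile normalization (-1.46, adjusted p 0.12), median centring (-1.37, 0.17) or normexp (-0.98, 0.10). Its relatives Lsr (-0.21, adjusted p 0.33) and Ildr2 (0.23, 0.19) and the corner protein gene Marveld2 (0.18, 0.23) did not pass. Clmp (0.65, adjusted p 0.0234) and Cxadr (0.59, adjusted p 0.0450), adhesion proteins of one immunoglobulin family, rose. Clmp and Cxadr each kept the call in 6 of 10 settings other than leaving out 1 array, and lost it with median centring. With its probes averaged, Clmp had 0.55 (adjusted p 0.0902, limma) and Cxadr 0.70 (adjusted p 0.0038). Ocln, which encodes occludin, had -0.12 (adjusted p 0.50) and F11r, of the adhesion molecule JAM-A, 0.03 (0.82).

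On the cytoplasmic side Tjp3 and Tjp1 encode scaffold proteins that tie claudins to actin. Tjp3 fell (log2 fold change -0.37, adjusted p 0.0286, limma) and Tjp1 did not pass (0.09, adjusted p 0.58). Cgn, the gene of cingulin, rose by 0.37 (adjusted p 0.0303), but was at -0.024 with arrays centred on their median. Apart from Ildr1 the 4 other called junction genes were called in 1 to 3 of the 8 fits with 1 array left out, always including the one without mutant replicate 2. Without that array 6 of the 39 passed, in a fit that called 17.3% of all features, and between 1 and 3 without any other, each wild-type array included.

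**Figure D3:**
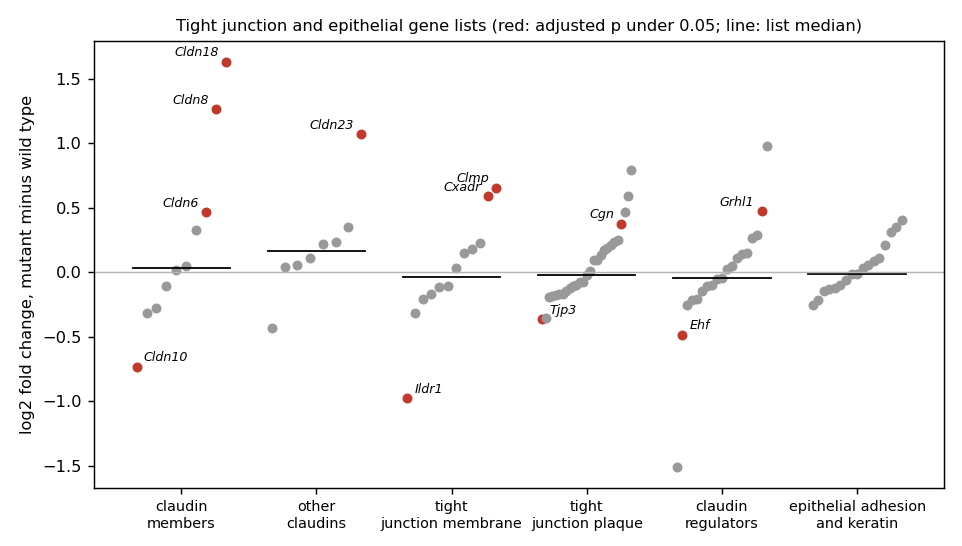
Log2 fold change of mutant minus wild type (y axis) for every tested gene of 6 lists (x axis), ordered by value within a list; red, named points have an adjusted p under 0.05 and black lines are list medians. The 6 medians lie between -0.05 and 0.16 while single genes reach from Ildr1 at -0.98 to Cldn18 at 1.63 among those called.

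Of 19 tested genes known to act on claudin levels or placement 2 were called, or 10.5%, where 5.58% of all features were. Ehf, an epithelial ETS factor, fell (log2 fold change -0.48, adjusted p 0.0218, limma) and Grhl1, of the grainyhead family, rose (0.47, adjusted p 0.0396). Each lost its call in the 7 fits that left out an array other than mutant replicate 2. Of 10 other settings 4 called Ehf and 3 called Grhl1. With its probes averaged, Ehf had -0.35 (adjusted p 0.17, limma) and Grhl1 0.58 (adjusted p 0.0594). Grhl2, a factor that drives Cldn4 in other epithelia, had 0.14 (adjusted p 0.22), Hnf4a 0.28 (0.10) and Epcam -0.05 (0.75). The dim Cdx2, known to drive Cldn2 in the gut, was well above background on 3 wild-type arrays and 1 mutant array, and its -1.51 had an adjusted p of 0.56. Without mutant replicate 2, 2 of the 19 rose and 1 fell, in a fit that called 17.3% of all features. The gene added there was Twist1 (0.52, adjusted p 0.0091, limma), which had 0.98 (adjusted p 0.20) with all arrays.

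General epithelial adhesion and keratin genes did not pass, with 0 of 17 called by limma and 3 at an unadjusted p under 0.05. Of all features 5.58% were called and 25.5% had such a p. Cdh1, of E-cadherin, read 3.46 to 3.60 in wild-type and 3.22 to 3.65 in mutant pools. Jup, of the junction protein plakoglobin, had the smallest p, with a log2 fold change of 0.41 (adjusted p 0.0711, limma). Krt19 followed, with a log2 fold change of 0.35 (adjusted p 0.15). Without mutant replicate 2, 4 of the 17 were higher, Krt8 (0.31), Krt18 (0.41), Krt19 (0.47, adjusted p 0.0064) and Jup (0.33), and 0 were lower, where that fit called 6.77% of all features as higher. The summed level of the 17 was 238 to 254 in wild-type pools, and in mutant pools 227 for replicate 2 and 279 to 306 for the others. The summed level of the 10 claudin genes was 43.6 to 48.8 in wild-type and 40.2 to 48.3 in mutant pools, so the totals overlapped. Such sums follow the probes of highest level. Cldn7 and Cldn3 had wild-type means of 4.13 and 3.50, while Cldn8 and Cldn18 had -1.12 and -2.07. Cldn8 and Cldn18 add little to the claudin sum, so the overlap says little of them.

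**Figure D4:**
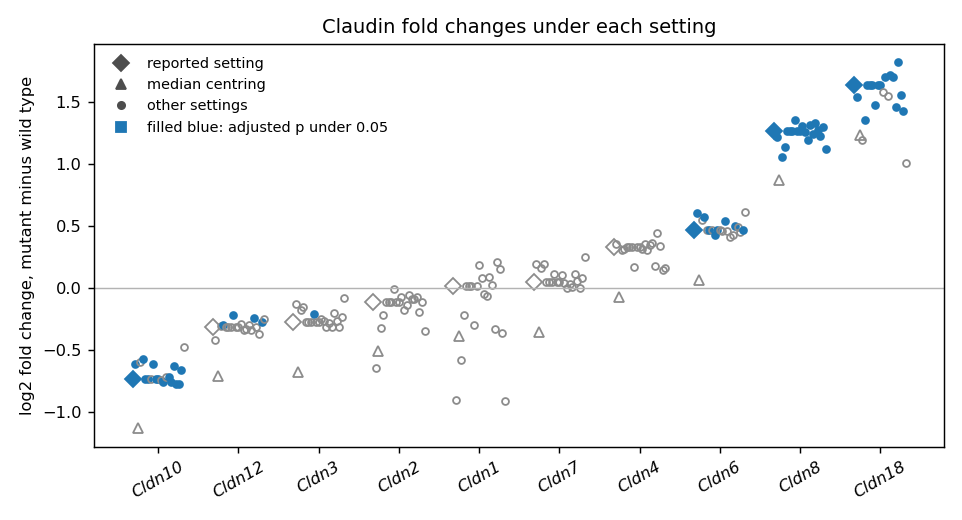
Log2 fold change of each claudin gene (y axis) under the reported setting (diamond), with arrays centred on their median (triangle) and under every other setting (circles); filled blue symbols have an adjusted p under 0.05. Cldn6, Cldn8 and Cldn18 stay above and Cldn10, Cldn12, Cldn3 and Cldn2 below 0 in all settings shown, while Cldn1, Cldn4 and Cldn7 cross it.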

How the data were processed

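Per the file headers, the deposited scanner files were written by Agilent Feature Extraction 9.5.3.1 for the one-colour array design 014868. Their processed signal is a background-subtracted intensity in linear scanner units, without normalization between arrays. The deposited series table is an intensity too, which followed each array's raw median spot signal with an r of at least 0.98. The submitters' processing notes name limma; the table's steps and any centring are not given in the sources used here, and it served as an alternative only. About 250 ng of total RNA was labelled per pool, per the labels' protocols.

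Control spots and outlier spots were left out, spots of a probe were averaged as log2 values of the deposited signal, and each array's 75th percentile was taken off. Probes well above background on at least 4 of the 8 arrays were kept, with 1 probe per gene, the one with the highest mean. Symbols were matched to RefSeq (GRCm38.p6), and probe positions are those of the files (mm8, NCBI 36); exons were not looked up on that build. Genotype was fitted with limma 3.58.1 (lmFit, eBayes, two-sided) in R 4.3.3 (files read with data.table, version 1.17.8), with Benjamini-Hochberg adjustment of the p-values over all features. The script was tested on simulated data. A gene is called at an adjusted p under 0.05. The number of arrays, 4 per genotype, limits the precision.

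The claudin genes, the other lists and the naming rule were chosen with earlier results of these data known. Named were all 10 claudin genes, Sox9, and of each other junction list up to 6 called genes by adjusted p, or 2 of the smallest p where none was called. Of the marker lists the called or undetected defining genes were named. One junction gene of the design is not reported here and was left out of its list. Other genes were named after their values were seen. Same-numbered pools of the 2 genotypes did not deviate together, so the numbers were not taken as pairs. Normalization, background correction, the filter, a replicate block, array weights, a variance trend, the probe rule and each array were varied.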

Additional observations from a re-analysis of the deposited data

Results flagged for a closer look

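Of 44 groups of 4 pools checked for a pool far from the others, 3 held one, and chance alone gives about 1 in 20. Cldn2 in mutant replicate 4 read -1.92, above the other mutant pools at -2.29 to -2.23. Cldn10 in mutant replicate 2 read 2.02, below the others at 2.41 to 2.46. The second Cldn1 probe in mutant replicate 2 read -3.03, above the others at -5.43 to -5.04. The latter 2 values come from the array that stood apart.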

How the results depend on the processing

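Besides the 8 fits that left out 1 array, 10 other settings were tried, plus 2 chosen after seeing the data. Cldn8 kept its call in 9 of the 10, Cldn18 in 8, Cldn10 in 7, Cldn23 in 7, Cldn6 in 5 and Ildr1 in 6. The 4 called claudin genes kept their direction in every setting run.

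Centring on the median moved the median log2 fold change of all features from -0.0045 to -0.40, and calls fell to 45 features, 0 claudin genes, 0 claudin probes, 0 junction genes, 0 other claudins and 0 regulators. There Cldn6 was at 0.07, Cldn8 at 0.87, Cldn18 at 1.23 and Cldn10 at -1.13. Centring on the median with mutant replicate 2 left out, an added setting, called 3424 features, 5 claudin genes and 2 epithelial genes. Normexp called 81 features, 1 claudin gene (Cldn8), 0 claudin probes, 1 junction gene, 0 other claudins and 0 regulators. With mutant replicate 2 also left out, the other added setting, it called 57 features, 1 claudin gene, 0 claudin probes, 0 junction genes, 0 other claudins and 0 regulators. The cause was not tested.

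Quantile normalization called 2 junction genes, 0 other claudins, 0 regulators and 3 epithelial genes. The series table called 2178 features, 3 junction genes and 3 epithelial genes. Without the detection filter 398 features, 1 junction gene and 0 regulators passed, and the median moved to 0.16. Array weights called 4692 features, 6 claudin probes, 9 junction genes, 3 other claudins, 5 regulators and 4 epithelial genes. The variance trend called 1632 features and 1 epithelial gene, and the mean over a gene's probes 716 features, 3 junction genes and 0 regulators. The replicate block called 146 features, 2 claudin genes, 1 claudin probe, 0 junction genes (Ildr1 at an adjusted p of 0.0513) and 0 regulators; the correlation of same-numbered pools was 0.019, -0.024, 0.055 and 0.13, and replicates 1 and 2 each matched another number best.

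Leaving out 1 array gave 358 to 3364 features, 1 to 5 claudin genes, 1 to 4 claudin probes, 1 to 6 junction genes, 0 to 3 regulators and 0 to 4 epithelial genes. Only 1 claudin gene, Cldn8, passed with wild-type replicate 1 or 3 left out.

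Signs turned for genes that had not passed, and for Cgn. Cldn1 was at -0.90 with quantile normalization, -0.38 with median centring, -0.58 with normexp, -0.22 with the series table, -0.30 with array weights, and -0.36 and -0.91 in the added settings. With 1 array left out Cldn1 ranged from -0.33 to 0.21 and Cldn7 from -0.0033 to 0.11. With median centring Cldn4 was at -0.070, Cldn7 at -0.35, Cgn at -0.024 and Krt19 at -0.048. Dim probes such as those of Cldn1 limit what could be detected.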
